A study of Mus musculus with 12 samples.

Results

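The genes described here encode 2 glucose transporters and 8 enzymes of the route from glucose to lactate. They are Slc2a1, Slc2a3, Hk1, Hk2, Gpi1, Pfkl, Aldoa, Pgk1, Pkm and Ldha. They were chosen by name, and all 10 of the 10 named genes were found among the 12151 genes measured by RNA-seq in 12 libraries. The libraries came from mouse pre-B cells, grown with IL-7 from the bone marrow of mice 6 to 12 weeks old and transformed with a BCR-ABL1 retrovirus, which models BCR-ABL1-driven acute lymphoblastic leukemia. All cells carried Ctnnb1Ex3fl/+, so that Cre removes exon 3 from 1 copy of the β-catenin gene and stabilizes the protein. The cells had been electroporated with Cas9 and nontargeting guides (sgNTC, labelled WT here) or with guides that cut Ikzf1 plus Ikzf3 (labelled KO), the genes of the B lymphoid transcription factors Ikaros and Aiolos. Knockout lines were grown from single cells, and the study's figure legends mention clonal WT lines as well. All cells were then transduced with a GFP vector for ERT2 (control) or Cre-ERT2 and sorted on GFP. Cre-ERT2 becomes active with 4-hydroxytamoxifen. The protocol names 1 day of activation in wording written for chromatin experiments. This gave 4 groups of 3 libraries, namely WT cells with either vector (ERT2 WT and Cre-ERT2 WT) and KO cells with either vector (ERT2 KO as well as Cre-ERT2 KO). Changes or effects of β-catenin below are Cre-ERT2 minus ERT2 libraries of a background. No group had Cre-ERT2 without Ctnnb1Ex3fl, so effects of Cre or of the vector cannot be told apart from those of stabilized β-catenin. The labels do not say whether the 3 libraries of a group are separate clones, cultures or days, so p-values measure only the spread between these libraries, which may be technical.

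Glucose enters cells through facilitative transporters and is trapped by hexokinase, which adds a phosphate. Glycolysis then splits the sugar and makes ATP and pyruvate, and lactate dehydrogenase turns pyruvate into lactate while restoring the NAD+ that the pathway needs. Proliferating lymphocytes and leukemia cells are known for rapid glycolysis, and Myc and the hypoxia-inducible factor HIF-1 are textbook activators of many of these genes.

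The values are log2 expression levels normalized between libraries by the authors, so a difference of 1 is a doubling. Depth is unknown, since no read counts were analysed here. The median gene lay between 9.06 and 9.11 in every library. As a check of the labels, Ikzf1 mRNA was not lower in the libraries labelled KO, with means of 13.74 in ERT2 WT and 14.75 in ERT2 KO, whereas Ikzf3 mRNA averaged 11.63 and 10.98. Gene-level values do not show a frameshift, so KO below means the libraries labelled KO. The study reports a western blot check of the loss of both proteins in its single-cell-derived lines, which the labels do not assign to libraries. All 10 B lineage markers searched for were measured, and none of 6 T cell or 6 erythroid markers is among the genes analysed.

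The promoters of several of these genes are shown first, because the 10 genes moved together in the comparison of KO with WT cells. RefSeq windows of 300 bases, from 250 before to 50 after each annotated start (GRCm38.p6), were matched for 9 of the 10 genes, 14 windows in all. Slc2a3 was not matched. Each sequence is printed 5′ to 3′ on the strand of the gene. Capitals mark ACGTG and GCGTG, the core letters of HIF-1 response elements, read on either strand, where they appear as CACGT and CACGC.
Ldha, chr7:46845554-46845853, plus strand: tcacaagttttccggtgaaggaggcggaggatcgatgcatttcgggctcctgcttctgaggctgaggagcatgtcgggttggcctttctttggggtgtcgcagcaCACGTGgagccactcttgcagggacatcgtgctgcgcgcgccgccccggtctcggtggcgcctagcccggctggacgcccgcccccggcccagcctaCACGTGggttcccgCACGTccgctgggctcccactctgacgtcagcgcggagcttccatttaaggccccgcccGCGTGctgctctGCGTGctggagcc
Pgk1, chrX:106186850-106187149, plus strand: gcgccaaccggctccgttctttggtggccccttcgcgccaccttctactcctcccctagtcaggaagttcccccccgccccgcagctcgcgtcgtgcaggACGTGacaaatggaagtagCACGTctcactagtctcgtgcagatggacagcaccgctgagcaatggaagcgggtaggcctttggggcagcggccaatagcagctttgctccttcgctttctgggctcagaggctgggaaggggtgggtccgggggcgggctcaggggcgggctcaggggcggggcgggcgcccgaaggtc
Slc2a1, chr4:119108495-119108794, plus strand: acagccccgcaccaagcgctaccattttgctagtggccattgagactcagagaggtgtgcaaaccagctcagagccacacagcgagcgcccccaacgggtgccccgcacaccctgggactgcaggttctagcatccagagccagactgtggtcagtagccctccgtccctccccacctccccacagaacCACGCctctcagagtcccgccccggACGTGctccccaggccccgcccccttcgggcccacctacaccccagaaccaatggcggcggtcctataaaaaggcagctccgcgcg
Hk1 inner start, chr10:62340372-62340671, minus strand: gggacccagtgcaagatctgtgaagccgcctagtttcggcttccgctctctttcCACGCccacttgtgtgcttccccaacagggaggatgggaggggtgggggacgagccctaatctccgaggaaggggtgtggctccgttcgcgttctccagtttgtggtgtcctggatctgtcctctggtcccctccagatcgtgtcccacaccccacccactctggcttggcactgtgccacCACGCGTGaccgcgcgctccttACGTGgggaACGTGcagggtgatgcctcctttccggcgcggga
Pkm, chr9:59656326-59656625, plus strand: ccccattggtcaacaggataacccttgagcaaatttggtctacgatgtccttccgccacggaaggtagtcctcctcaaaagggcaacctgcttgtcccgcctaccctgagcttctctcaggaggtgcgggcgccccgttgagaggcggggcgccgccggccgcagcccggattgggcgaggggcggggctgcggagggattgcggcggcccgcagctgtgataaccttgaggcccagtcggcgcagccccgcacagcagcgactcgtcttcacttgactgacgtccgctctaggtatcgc

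Ldha was chosen because the window shown holds the most matches, 7 over both strands, where CACGTG counts as a match on each strand. Hk1 was chosen because it changed most. Slc2a1 and Pgk1 stand for the first and a late step of the pathway, and this Pkm window is an example without a match. The other Pkm window, not shown, held 2 matches, and the outer Hk1 window, not shown, held 0. The windows of 8 of the 9 matched genes, 10 of 14 windows, held at least 1 of the 2 cores. Gpi1 was the matched gene without a core. Such a core was found in 43.8% of all 32851 RefSeq windows and in 62.5% of the 10927 windows of the genes tested here. These shares are counted per window and compare with 10 of 14, not with 8 of 9, since some genes have several windows. The letters CACGTG, an E box that Myc can bind and that contains ACGTG, appeared among the 14 windows only in the Ldha window shown, in 2 copies, against 10.2% of the windows of tested genes. GGGAA, the core that Ikaros factors recognize, was found in 11 of the 14 windows and in 64.5% of those of tested genes. These matches are descriptions of letters and were not read as binding sites. Hk1 and Pkm have alternative starts or isoforms, which gene-level values do not separate.

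The 10 genes covered a wide span of levels. Divided by the length of the annotated exons (GENCODE models on GRCm38), the mean log2 level per kb in ERT2 WT cells was 13.70 for Pgk1, 13.58 for Ldha, 13.19 for Aldoa, 13.14 for Pkm and 11.39 for Gpi1. It was 9.34 for Pfkl, 8.91 for Slc2a1, 8.26 for Hk2, 6.42 for Hk1 and 4.18 for Slc2a3. All enzymes other than the hexokinases thus stood above the transporters and hexokinases. Neighbours in this order were apart by more than their SDs, with Aldoa (SD 0.040) and Pkm (SD 0.0058) the closest pair. These 2 genes differed by less than the SD of Aldoa in Cre-ERT2 WT cells, at 13.13 and 13.14 (SD of Aldoa 0.050), and in Cre-ERT2 KO cells, at 13.93 and 13.92 (SD of Aldoa 0.049). Pgk1 lay at percentile 99.3 of the 12111 genes with an exon length, and Slc2a3 at percentile 20.3.

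The first question was whether the glycolytic genes differed between KO and WT cells without activated Cre. In ERT2 libraries all 10 genes were higher in KO than in WT cells, by 0.51 (Gpi1) to 1.49 (Hk1), with a median of 0.79. Over all genes 29.8% were called higher and 29.3% lower, with a median of 0.0016, so a call as such was common in this comparison and the sizes carry the description. The values of the 10 genes did not overlap between the groups, which held upward for 33.3% of all genes. The rises placed all 10 genes between percentile 95.7 (Gpi1) and 99.4 (Hk1) of the changes of all genes. Called means a limma adjusted p (Benjamini-Hochberg over all genes) under 0.05.

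Slc2a1 encodes GLUT1, the basal glucose transporter of most cells. It measured 10.72, 10.75 and 10.68 in ERT2 WT, 10.72, 10.70 and 10.68 in Cre-ERT2 WT, 11.70, 11.74 and 11.86 in ERT2 KO, and 11.64, 11.68 and 11.75 in Cre-ERT2 KO libraries. All 6 KO values lay above all 6 WT values, and the vectors overlapped within each background. Slc2a1 rose by 1.05 (SE 0.040, limma adjusted p 2.22e-10), which is 2.07-fold (95% confidence interval 1.95 to 2.20). Slc2a3, the high-affinity transporter GLUT3, was the lowest of the 10 genes and measured 6.97 to 7.08 in the 6 WT libraries and 7.63 to 7.81 in the 6 KO libraries. It rose by 0.72 (SE 0.042, limma adjusted p 1.31e-08), and the log2 difference between Slc2a1 and Slc2a3 averaged 3.68 in ERT2 WT and 4.00 in ERT2 KO libraries.

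Hk1 and Hk2 encode the hexokinases that commit glucose to metabolism. Hk1 measured 9.50, 9.52 and 9.50 in ERT2 WT, 9.64, 9.51 and 9.51 in Cre-ERT2 WT, 10.98, 11.01 and 11.01 in ERT2 KO, and 10.79, 10.87 and 10.93 in Cre-ERT2 KO libraries. It had the largest rise of the 10 genes, 1.49 (SE 0.040, limma adjusted p 6.83e-12), or 2.81-fold (95% confidence interval 2.65 to 2.98). Its interval did not overlap that of Slc2a1, which was next. Hk1 shares exon sequence with the antisense gene Hk1os. Slc2a1, Gpi1 and Aldoa also overlap exons of antisense genes, and Pkm those of a gene on its own strand. These other genes are not among the genes analysed. The kit keeps strand, but the counting setting is not given in the sources used here. Hk1os measured 2.78 to 2.85 across the 12 libraries, against at least 9.50 for Hk1.

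Hk2, the inducible hexokinase, measured 10.76, 10.89 and 10.85 in ERT2 WT, 10.75, 10.70 and 10.63 in Cre-ERT2 WT, 11.57, 11.63 and 11.63 in ERT2 KO, and 11.41, 11.41 and 11.43 in Cre-ERT2 KO libraries. Its rise of 0.78 (SE 0.036, limma adjusted p 1.51e-09) was smaller than that of Hk1. The log2 difference of Hk1 minus Hk2 within a library therefore moved from -1.32 ± 0.062 (SD, n = 3) in ERT2 WT to -0.61 ± 0.015 (SD, n = 3) in ERT2 KO, and from -1.14 ± 0.046 to -0.56 ± 0.058 with Cre-ERT2. The WT and KO values of this difference did not overlap in either vector. An exact permutation test of 3 against 3 libraries cannot go below a 2-sided p of 0.1.

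**Figure D1:**
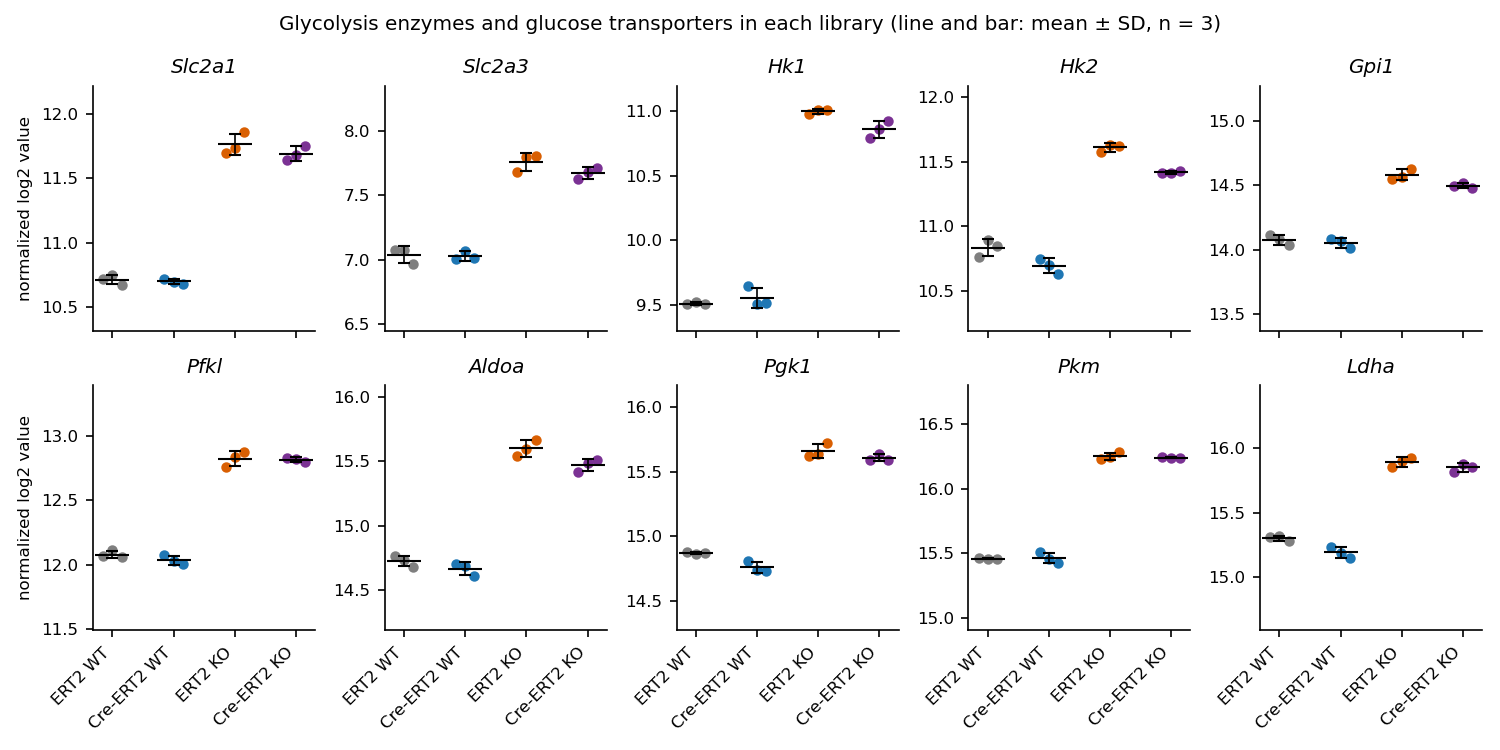
Each panel plots the normalized log2 value of a gene (y axis, all panels spanning the same log2 range) in the 3 libraries of each group (x axis), with the group mean and SD as a line and bar. In every panel the 6 KO libraries lie above the 6 WT libraries, and ERT2 and Cre-ERT2 libraries of a background lie close together.

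The enzymes between glucose 6-phosphate and the triose phosphates rose as well. Gpi1, glucose 6-phosphate isomerase, measured 14.01 to 14.11 in WT and 14.48 to 14.63 in KO libraries and had the smallest rise, 0.51 (SE 0.027, limma adjusted p 6.62e-09). Pfkl, the liver-type subunit of phosphofructokinase, a regulated step of glycolysis, measured 12.01 to 12.11 in WT and 12.76 to 12.88 in KO libraries, a rise of 0.74 (SE 0.030). Aldoa, aldolase A, which splits fructose 1,6-bisphosphate, measured 14.76, 14.73 and 14.68 in ERT2 WT and 15.54, 15.59 and 15.67 in ERT2 KO, rising by 0.87 (SE 0.037). The KO values of each of these enzymes lay above all WT values.

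Pgk1, Pkm and Ldha act in the payoff phase and beyond. Pgk1, phosphoglycerate kinase, makes ATP from the phosphorylated product of glyceraldehyde 3-phosphate dehydrogenase. It measured 14.87, 14.86 and 14.87 in ERT2 WT and 15.62, 15.64 and 15.72 in ERT2 KO, and so rose by 0.79 (SE 0.029, limma adjusted p 1.29e-10). Pkm, the pyruvate kinase of most tissues, measured 15.43 to 15.51 in the 6 WT and 16.23 to 16.28 in the 6 KO libraries and rose by 0.79 (SE 0.022). Ldha, which forms lactate, measured 15.31, 15.32 and 15.28 in ERT2 WT and 15.85, 15.90 and 15.92 in ERT2 KO, rising by 0.59 (SE 0.027). For all 3 genes the groups were separate. GENCODE holds pseudogenes named after Aldoa (2), Pgk1 (3) and Ldha (2), and 1 of those of Pgk1 is among the genes analysed. They could share reads with the parent genes, whose levels are therefore less certain. Pseudogenes under other names were not searched for.

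With Cre-ERT2 in both backgrounds, in a comparison that shares no library with the one above, all 10 genes were again higher in KO cells, by 0.44 (Gpi1) to 1.31 (Hk1), with a median of 0.78. In this comparison 30.4% of all genes were called higher and 28.6% lower, and 32.9% had KO values that all lay above the WT values, as those of the 10 genes did. Slc2a1 rose by 0.99 (SE 0.040, limma adjusted p 3.66e-10), Hk1 by 1.31 (SE 0.040), Pgk1 by 0.85 (SE 0.029) and Ldha by 0.66 (SE 0.027). The fit took the spread from all 12 libraries, so these SEs and p-values are not independent of those in ERT2 cells. The share of genes called higher depends on scaling. When libraries were centered on their medians, the calls were 2866 higher and 4747 lower in ERT2 cells, against 3616 and 3559, and 2983 and 4789 with Cre-ERT2, against 3688 and 3473. The rises of the 10 genes were called in every alternative in both comparisons, where a filter at a mean of 8 left out Slc2a3.

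**Figure D2:**
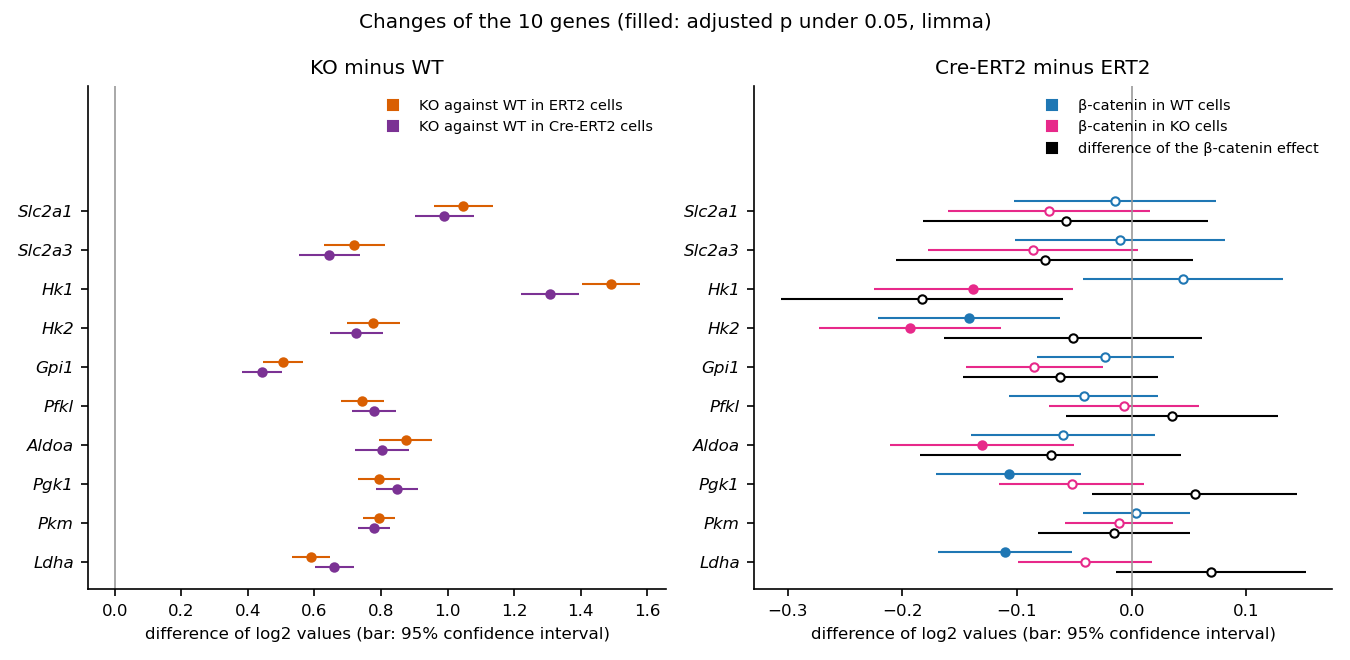
Points give the difference of log2 values (x axis) for each gene (y axis), KO minus WT on the left and Cre-ERT2 minus ERT2 on the right, where black marks the β-catenin effect in KO minus that in WT cells, with 95% confidence intervals and filled points for limma adjusted p under 0.05. All KO minus WT values lie between 0.44 and 1.49, and all Cre-ERT2 minus ERT2 values in WT or KO cells between -0.19 and 0.045.

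To put the genes on a common scale, the values were unlogged and summed. The 10 genes made up 0.709% to 0.718% of the summed units of the 12151 genes in ERT2 WT, 0.667% to 0.709% in Cre-ERT2 WT, 1.18% to 1.25% in ERT2 KO and 1.15% to 1.18% in Cre-ERT2 KO libraries. The mean share was 1.7 times higher in KO than in WT cells with ERT2 and 1.69 times with Cre-ERT2, and no KO library reached down to a WT library. With the 8 other glycolytic enzymes measured, the mean share was 1.29% in ERT2 WT, 1.25% in Cre-ERT2 WT, 2.09% in ERT2 KO and 2.02% in Cre-ERT2 KO libraries. In bulk libraries fewer cells of a type and less RNA per cell cannot be told apart.

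**Figure D3:**
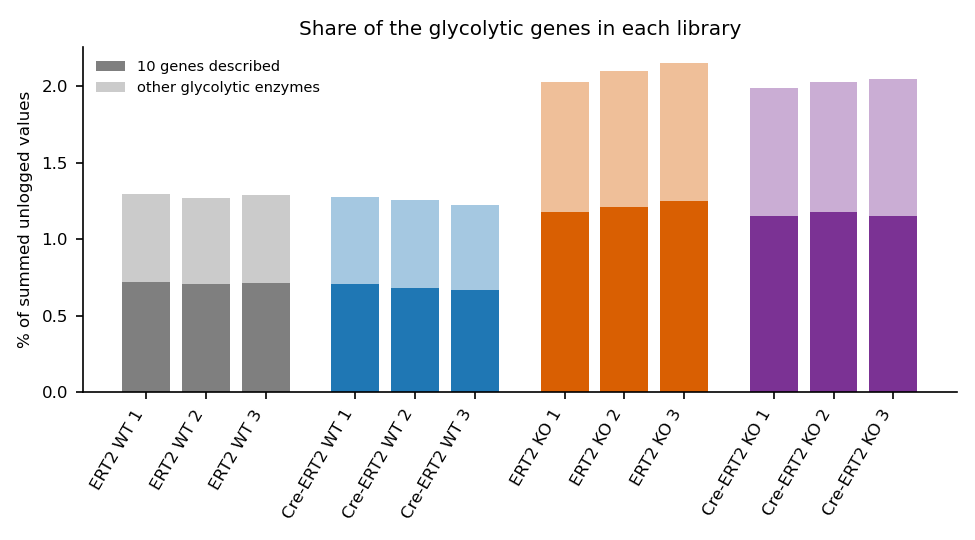
Bars give, for each of the 12 libraries (x axis), the share of the summed unlogged values (y axis, %) held by the 10 genes described (dark) and by 8 other glycolytic enzymes (light). The dark part stands at 0.667% to 0.718% in WT and at 1.15% to 1.25% in KO libraries.

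Within a group the genes also tended to share the order of their libraries. In ERT2 KO, replicate 3 was the highest library for 9 of the 10 genes and replicate 1 the lowest for 10 of 10. In Cre-ERT2 WT, replicate 1 was the highest for 9 genes. The mean deviation over the 10 genes was -0.046 for ERT2 KO replicate 1, 0.046 for ERT2 KO replicate 3 and 0.039 for Cre-ERT2 WT replicate 1. These shared deviations were small beside the KO minus WT rises. They were not small beside the median β-catenin changes of the 10 genes, -0.032 in WT and -0.078 in KO cells. Pearson's r over the 12 libraries ran from 0.973 (Hk2 with Pkm) to 0.998 (Pgk1 with Ldha) over the 45 pairs. These values share libraries, normalization and the split between WT and KO, and are a description.

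The next question was whether these genes differed between Cre-ERT2 and ERT2 libraries of WT cells. Stabilized β-catenin and Cre itself cannot be told apart in this comparison. The changes were small. None of the 10 genes was called higher and 3 were called lower, Hk2 by -0.14 (SE 0.036, limma adjusted p 0.0242), Ldha by -0.11 (SE 0.027, adjusted p 0.018) and Pgk1 by -0.11 (SE 0.029, adjusted p 0.031). Over all genes 5.93% were called higher and 5.95% lower. The Cre-ERT2 values of these 3 genes all lay below the ERT2 values, which held for 15.9% of all genes. Pgk1 measured 14.81, 14.74 and 14.73 in Cre-ERT2 WT and Ldha 15.24, 15.19 and 15.15. The calls rested on single libraries. Without ERT2 WT replicate 2, Cre-ERT2 WT replicate 2 or Cre-ERT2 WT replicate 3 none of the 10 genes was called, and without ERT2 WT replicate 1 or replicate 3 only 1 was. Leaving out any of these 5 libraries kept the directions of the 3 genes, with values of -0.09 to -0.14 for the falls that lost their call and adjusted p of up to 0.12. The other 7 genes changed by -0.060 (Aldoa) to 0.045 (Hk1). Their 95% confidence intervals all lay between -0.14 and 0.13.

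In KO cells all 10 values were below 0, although Pfkl and Pkm turned above 0 without ERT2 KO replicate 3 and Pfkl also without Cre-ERT2 KO replicate 3. Since the genes share the deviations of their libraries, these signs are not 10 separate observations. Of the 10 genes 3 were called lower, Hk2 by -0.19 (SE 0.036, limma adjusted p 0.00391), Hk1 by -0.14 (SE 0.040, adjusted p 0.0412) and Aldoa by -0.13 (SE 0.037, adjusted p 0.0376). Here 7.27% of all genes were called higher and 5.33% lower. The KO libraries with Cre-ERT2 lay below those with ERT2, without overlap, for 4 of the 10 genes and for 13.9% of all genes. Hk2 kept its call in all alternatives at an adjusted p under 0.05 and fell in both backgrounds. The backgrounds share no library, but the fit used a common estimate of the spread for both. The call of Hk1 was lost without any of the 3 ERT2 WT libraries, any of the 3 ERT2 KO libraries, or Cre-ERT2 KO replicate 1 or 2 (adjusted p 0.0552 to 0.139). That of Aldoa was lost without ERT2 WT replicate 2, Cre-ERT2 WT replicate 2, ERT2 KO replicates 2 or 3, or Cre-ERT2 KO replicates 1 or 2 (adjusted p 0.0502 to 0.146). Without ERT2 WT replicate 2, ERT2 KO replicate 2 or 3, or Cre-ERT2 KO replicate 1 or 2, only Hk2 was called. The comparisons of KO with WT in ERT2 cells and of Cre-ERT2 with ERT2 share control libraries, and their values stand side by side here without a test of likeness.

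Whether the β-catenin effect differed between KO and WT cells was tested as the difference of the effects, which is also the difference between the KO effects with and without Cre. No gene of the 10 was called by limma, and 1, Hk1, had an unadjusted p under 0.05, where 4.53% of all genes were called. The differences ran from -0.18 (Hk1, 95% confidence interval -0.31 to -0.060, adjusted p 0.103) to 0.069 (Ldha, -0.013 to 0.15). Hk1 was called without Cre-ERT2 KO replicate 3 (-0.22, adjusted p 0.0475), and in no other alternative.

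The other glycolytic enzymes followed the 10 genes in the KO comparison. Of 16 further isoenzymes and enzymes, 8 were measured, and 8 were called higher in ERT2 and 7 in Cre-ERT2 cells, with medians of 0.65 and 0.59. Pfkm, the muscle-type phosphofructokinase subunit, rose by 1.03 (SE 0.044, limma adjusted p 5.75e-10) and Tpi1, triose phosphate isomerase, by 0.80 (SE 0.035). Gapdh, often used as a reference gene, measured 16.21 to 16.31 in WT and 16.69 to 16.87 in KO libraries and rose by 0.51. Eno3, the muscle enolase, had a small difference of 0.093 in ERT2 cells, a call kept in 13 of 19 alternatives, and 0.045 in Cre-ERT2 cells, where it was not called. Together 18 of 18 measured glycolytic genes were called higher in ERT2 and 17 of 18 in Cre-ERT2 cells. None of the 8 was called with β-catenin, in WT or KO cells, or for the difference. At an unadjusted p under 0.05 these counts were 2, 3 and 1, and without ERT2 KO replicate 1 or Cre-ERT2 KO replicate 2, 1 was called in KO cells.

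**Figure D4:**
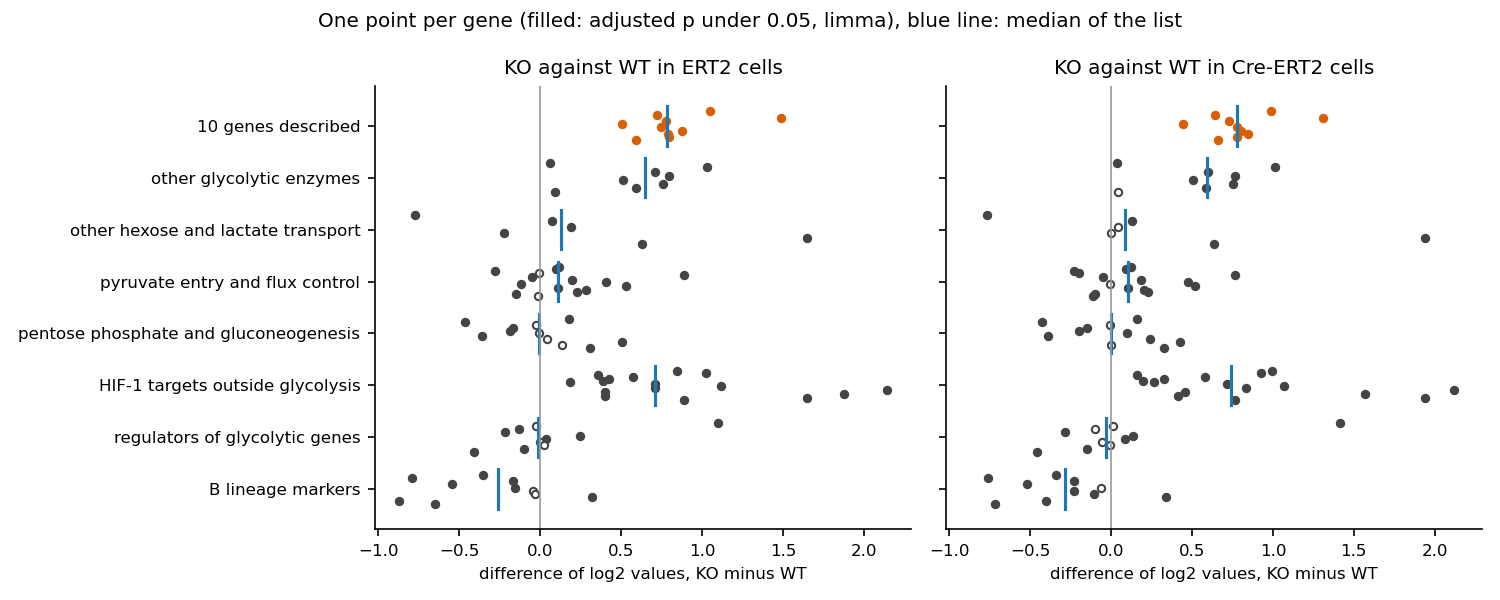
Each point is a gene and gives its difference of log2 values, KO minus WT (x axis), in ERT2 (left) and Cre-ERT2 cells (right), by gene list (y axis), filled for limma adjusted p under 0.05, with the median of the list as a blue line. The 10 genes and the HIF-1 targets lie to the right of 0, and the B lineage markers mostly to the left.

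Transport changed unevenly. Of 12 further hexose and lactate transport genes 6 were measured, and 4 were called higher and 2 lower in ERT2, 3 and 1 in Cre-ERT2 cells. Slc16a3 encodes MCT4, a lactate exporter of highly glycolytic cells. It measured 9.46, 9.45 and 9.46 in ERT2 WT, 9.26, 9.22 and 9.17 in Cre-ERT2 WT, 11.05, 11.09 and 11.18 in ERT2 KO, and 11.10, 11.20 and 11.16 in Cre-ERT2 KO libraries. Its KO minus WT difference was 1.65 with ERT2 (SE 0.036, limma adjusted p 1.10e-12) and 1.94 with Cre-ERT2. Bsg, the chaperone of the lactate transporters, rose by 0.63 in both.

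Slc16a1, the widely expressed lactate transporter MCT1, went another way. It was lower in KO cells by -0.23 with ERT2 (SE 0.025, limma adjusted p 6.75e-06), differed by -0.00053 with Cre-ERT2, and rose upon β-catenin stabilization by 0.28 in WT and 0.50 in KO cells. The log2 difference of Slc16a3 minus Slc16a1 averaged -4.19 in ERT2 WT, -4.71 in Cre-ERT2 WT, -2.32 in ERT2 KO and -2.77 in Cre-ERT2 KO libraries, with no overlap between any 2 groups. The glucose transporter gene Slc2a6 was lower in KO cells by -0.77 and -0.76. Slc2a9, a urate and hexose transporter, fell with β-catenin in KO cells by -0.16, and Slc16a3 fell in WT cells by -0.24. The transport list had 2 calls with β-catenin in each background.

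**Figure D5:**
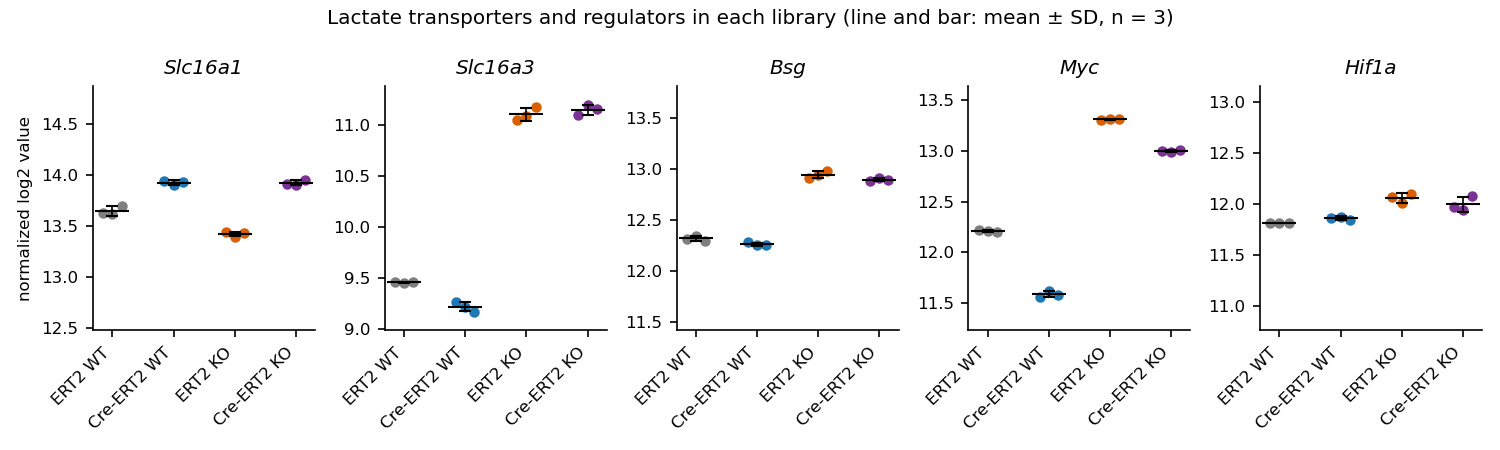
Panels plot the normalized log2 value (y axis, all panels spanning the same log2 range) of Slc16a1, Slc16a3, Bsg, Myc and Hif1a in each library by group (x axis), with mean and SD. Slc16a3 and Bsg lie higher in KO than in WT libraries in both vectors, whereas Slc16a1 lies higher with Cre-ERT2 in both backgrounds, and Myc lies higher in KO and lower with Cre-ERT2.

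Of 18 genes that route pyruvate or set the flux 15 were measured, of which 9 were called higher and 4 lower in ERT2, 9 and 5 in Cre-ERT2 cells, with medians of 0.11 and 0.10. Pdk1, the kinase that inactivates pyruvate dehydrogenase, rose in KO cells by 0.89 and 0.76, and Pdha1, a subunit of that dehydrogenase, by 0.53 and 0.52. Pfkfb3, which makes the activator of phosphofructokinase, was lower in KO cells by -0.28 and -0.23 and rose with β-catenin by 0.20 in WT and 0.25 in KO cells. Mpc1, a subunit of the mitochondrial pyruvate carrier, was lower by -0.15 in ERT2 and Txnip, an inhibitor of glucose uptake, by -0.20 in Cre-ERT2 cells. With β-catenin 3 genes were called higher in WT cells (Pdk1, Pfkfb3 and Pdha1), and the same 3 higher and Txnip lower in KO cells. The count of 4 in KO cells fell to 2 or 1 without any ERT2 KO library or without Cre-ERT2 KO replicate 3.

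The pentose phosphate and gluconeogenesis genes did not share the rise. Of 13 genes 11 were measured, with 3 called higher and 4 lower in ERT2 cells, 5 and 4 in Cre-ERT2 cells, and medians of -0.0058 and -0.00034. Pgls and Taldo1, enzymes of the pentose phosphate pathway, were lower by -0.46 and -0.36 in ERT2 cells, while Pck2 and G6pc3, mitochondrial phosphoenolpyruvate carboxykinase and a glucose 6-phosphatase, were higher by 0.51 and 0.31. With β-catenin 2 were called in WT cells (Tkt by -0.13 and Fbp1 by 0.079) and 4 in KO cells (Fbp1 by 0.28, Pgls by 0.13, Pcx by -0.23 and Pck2 by -0.16). Pcx lay at 4.20, its lowest value, in all 3 Cre-ERT2 KO libraries and measured 4.34, 4.32 and 4.62 in ERT2 KO. It also lay at 4.20 in all 3 Cre-ERT2 WT libraries and measured 4.34, 4.36 and 4.20 in ERT2 WT. Its change with β-catenin in WT cells was -0.10 and was not called. Without ERT2 KO replicate 3 Pcx fell in KO cells by only -0.14 (limma adjusted p 0.0377), and its call there was kept in 12 of 19 alternatives. The count in WT cells fell to 0 without ERT2 WT replicate 2 or Cre-ERT2 WT replicate 1 or 3, and to 1 without ERT2 WT replicate 3. That in KO cells fell to 2 without ERT2 KO replicate 2 or 3 or Cre-ERT2 KO replicate 2, and to 1 without Cre-ERT2 KO replicate 1.

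HIF-1 targets outside glycolysis rose with the 10 genes in KO cells. Of 18 genes 16 were measured, and 16 of 16 were called higher in both comparisons, by 0.18 to 2.14 with a median of 0.71 in ERT2 and by 0.16 to 2.12 with a median of 0.74 in Cre-ERT2 cells. The list shares Slc16a3 and Pdk1 with those above. Ndrg1, a hypoxia-induced stress gene, measured 9.18, 9.20 and 9.28 in ERT2 WT and 11.27, 11.39 and 11.42 in ERT2 KO libraries and rose by 2.14 (SE 0.040, limma adjusted p 2.56e-13). Ero1l, an oxidase of protein folding, rose by 1.88 (SE 0.053). With β-catenin 1 gene was called higher (Pdk1) and 2 lower (Slc16a3 and Bnip3, by -0.22) in WT cells. In KO cells 2 were called higher (Kdm3a and Pdk1) and 4 lower, led by Ero1l by -0.38 and Egln3 by -0.19, which lay at 4.98, its lowest value, in all 6 WT libraries. This count of 6 fell to 3 without ERT2 KO replicate 2 or 3 or Cre-ERT2 KO replicate 1 or 2.

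Of 11 regulators 10 were measured, with 3 called higher and 4 lower in ERT2, 3 and 3 in Cre-ERT2 cells, and medians of -0.013 and -0.033. Myc, a transcription factor that drives growth and metabolism, rose in KO against WT libraries by 1.10 with ERT2 (SE 0.019, limma adjusted p 1.55e-13) and by 1.41 with Cre-ERT2. It fell with β-catenin by 0.62 in WT and 0.31 in KO cells. The 10 genes changed in the same 4 comparisons by medians of 0.79, 0.78, -0.032 and -0.078. A link between Myc and the 10 genes was not tested. Hif1a, the oxygen-regulated subunit of HIF-1, whose activity is set mainly at the protein level, was higher by 0.25 and 0.14. Nr3c1, the glucocorticoid receptor gene, was lower by -0.41 and -0.46, and Mlxip, which encodes a glucose-responsive factor, by -0.22 and -0.29. With β-catenin, Myc was the single call in WT cells, where 2 were called without Cre-ERT2 KO replicate 3. Myc and Trp53 (-0.087) were called in KO cells, and the call of Trp53 was lost without ERT2 WT replicate 1 or 2, Cre-ERT2 WT replicate 2 or 3, or any ERT2 KO library.

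Markers of cell identity moved in the same comparison as the 10 genes. Of the 10 B lineage markers 7 were called lower and 1 higher in ERT2 KO against ERT2 WT cells and 8 and 1 with Cre-ERT2, and their summed share was 0.482% to 0.492% in ERT2 WT, 0.479% to 0.491% in Cre-ERT2 WT, 0.377% to 0.379% in ERT2 KO and 0.361% to 0.372% in Cre-ERT2 KO libraries. Of 6 myeloid markers only Lyz2 and Itgam were measured. Their summed units were 194.5 to 196.2 in ERT2 WT, 189.4 to 194.4 in Cre-ERT2 WT, 349.6 to 370.1 in ERT2 KO and 401.3 to 432.8 in Cre-ERT2 KO libraries, at most 0.00186% of all units. Lyz2 rose by 0.99 and 1.23 in KO cells and Itgam fell by 0.15 and 0.18. The part of these markers in the changes of the 10 genes was not tested. With β-catenin 2 of the B lineage markers were called higher and 5 lower in each background. The study's methods describe single-cell-derived KO lines, and its figure legends also mention clonal WT lines and several clones per genotype. The labels do not assign lines to libraries, so clone and genotype cannot be told apart.

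The genes whose pattern over the 12 libraries was most like that of Hk1, among 612 genes with a range of group means at least 0.5 times as wide, were Shisa3 (r 0.998), Bhlhe40 (r 0.998) and Gem (r 0.998). For Slc2a1, among 1127 such genes, they were Pgm2 (r 0.998), Bhlhe40 (r 0.998) and Atg4c (r 0.998). Pgm2, a phosphoglucomutase family member, averaged 11.26 in ERT2 WT, 11.26 in Cre-ERT2 WT, 11.99 in ERT2 KO and 11.90 in Cre-ERT2 KO libraries, and Bhlhe40, a hypoxia-inducible transcriptional repressor, 10.24, 10.30, 11.67 and 11.58. These correlations are descriptions over libraries that share the split between WT and KO.

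For reference, the gene models of the 10 genes on GRCm38 span chromosome 4, 119108711 to 119137983 (Slc2a1), chromosome 6, 122727809 to 122801640 (Slc2a3), chromosome 10, 62268855 to 62379908 (Hk1) and chromosome 6, 82725025 to 82774454 (Hk2). They span chromosome 7, 34201330 to 34230336 (Gpi1), chromosome 10, 77986947 to 78010083 (Pfkl), chromosome 7, 126795234 to 126800751 (Aldoa), X chromosome, 106187100 to 106203699 (Pgk1), chromosome 9, 59656368 to 59679375 (Pkm) and chromosome 7, 46841475 to 46855627 (Ldha). All are protein-coding genes, and each value covers all annotated exons of a gene.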

How the data were processed

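RNA was measured by poly(A) RNA-seq in 12 libraries of 4 groups, with a stranded kit, 280 ng of input and 10 cycles of amplification. The authors ran Salmon 1.4.0, STAR 2.7.6 (mm10/GRCm38) and DESeq2 1.30.1, per the study's methods and processing notes. Normalized log2 values were deposited as a table of genes by libraries. The transformation is not given in the sources used here, and it may compress changes of weakly expressed genes. The table gives no counts, so depth and counting error are unknown and the precision is that of the 3 libraries per group.

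Values were used as deposited, without a pseudocount or filter. Group means of all 12 libraries were fitted with limma 3.58.1 in R 4.3.3 (lmFit, contrasts.fit, eBayes with a mean trend), and p-values were adjusted over 12151 genes by Benjamini-Hochberg. The fit was tested on simulated data. Each comparison was refitted with other samples, scalings, priors, filters, a pseudocount of 16, a threshold of 0.01, the replicate number as a block, and without each library. Groups came from sample titles. Members and gene lists were chosen with earlier results of these data known. Besides the 10 members, the text names for each list the 2 largest called changes in each direction, the 3 genes most alike to the 2 members with the widest range, and Myc, Ikzf1 and Ikzf3. Gapdh, Eno3, Vegfa, Lyz2, Dntt, Ebf1, Itgam and Hk1os were named after their values were seen, and 1 gene of the lists is not reported by name here. Promoters are from RefSeq (GRCm38.p6) and gene models from GENCODE (GRCm38).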

Additional observations from a re-analysis of the deposited data

Results flagged for a closer look

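For 11 genes, namely Ikzf1 and 10 genes of the lists above, none of them among the 10 glycolytic genes, the β-catenin change in KO cells minus that in WT cells passed its own test (limma adjusted p under 0.05). With 3 libraries a group, single outlying libraries were not searched for. Among the lactate transporters, Slc16a3 had a difference of 0.29 (adjusted p 0.00671), with -0.24 in WT and 0.047 in KO cells, and Slc16a1 one of 0.22 (adjusted p 0.00325), with a larger rise in KO cells. Myc had a difference of 0.31 (adjusted p 2.70e-05), with the smaller fall in KO cells. Fbp1, the gluconeogenic fructose bisphosphatase, rose more in KO cells by 0.20 (adjusted p 0.00162). Among the HIF-1 targets, Ero1l (-0.31, adjusted p 0.0357) and Vegfa (-0.20, adjusted p 0.0148) had negative differences, and Ero1l kept its call in 10 of 19 alternatives. Egln3 also had a negative value (-0.19, adjusted p 0.00872), but it lay at its lowest value, 4.98, in all 6 WT libraries, where no fall could be seen. Its value restates the fall in KO cells and does not show unequal effects. Among the B lineage markers, Dntt, the terminal transferase of antigen receptor assembly, rose more in KO cells by 0.47 (adjusted p 2.04e-06), and Ebf1, a B lineage transcription factor, had a difference of -0.19 (adjusted p 0.0175). The myeloid marker Lyz2 had a difference of 0.24 (adjusted p 0.0145) and Ikzf1 one of -0.10 (adjusted p 0.0422), whose call was kept in 4 of 19 alternatives. Vegfa, Lyz2, Dntt and Ebf1 were chosen after their values were seen.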

How the results depend on the processing

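The rises of the 10 genes in KO cells kept direction and call in all 209 refitted values in each of the 2 comparisons. With β-catenin the counts of called genes, 3 in each background, were less stable. In WT cells quantile normalization gave 1, a threshold of 0.01 gave 0, and leaving out libraries gave 0 to 3. In KO cells a fit to the 6 libraries compared gave 1, quantile normalization 5, a threshold of 0.01 gave 1, and leaving out libraries 1 to 3. The difference had 0 called, and 0 to 1 when libraries were left out. The causes were not tested.

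The replicate numbers are shared between groups, but deviations of same-numbered libraries correlated by only -0.091 to 0.31 over 18 pairs, so the numbers were not taken to pair them. With a replicate block, 2 of the 10 genes were called for β-catenin in WT cells and 1 for KO cells, 10 in both KO comparisons and 0 for the difference.

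Values near 0 changed sign. For β-catenin in WT cells, Slc2a1 was 0.0025 without ERT2 WT replicate 2 (-0.0338 to 0.0025 over all libraries left out), Slc2a3 0.0079, 0.0084 and 0.0018 without ERT2 WT replicate 1 or 2 or Cre-ERT2 WT replicate 1 (-0.0472 to 0.0084), and without the latter Hk1 was -0.0006 (up to 0.0689 otherwise) and Pkm -0.0188 (up to 0.0218). Pkm was -0.0017 with median centering. In KO cells Pfkl was 0.0199 and 0.0024 without ERT2 KO replicate 3 or Cre-ERT2 KO replicate 3 (lowest -0.0384), and Pkm 0.0047 without ERT2 KO replicate 3 (lowest -0.0228). For the difference, Pgk1 was -0.0818 with quantile normalization and Pkm 0.0078 and 0.0006 without Cre-ERT2 WT replicate 1 or ERT2 KO replicate 3 (lowest -0.0328).

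Over all genes, the 1443 calls for β-catenin in WT, 1531 in KO cells and 550 for the difference became 787, 790 and 240 at 0.01. The count in KO cells was 934 with only the libraries compared, and that of the difference 337 with a mean of at least 8. Counts of the other lists moved as well. With β-catenin in KO cells, the libraries compared alone gave 2 of 4 flux control genes, 2 of 4 pentose phosphate genes, 3 of 6 HIF-1 targets and 1 of 2 regulators, a threshold of 0.01 gave 1, 1, 2 and 1, and quantile normalization gave 1 other glycolytic enzyme against 0. The mean filter gave 2 pentose phosphate genes against 4. In WT cells the 2 pentose phosphate genes became 1 with quantile normalization or the mean filter and 0 at 0.01. In KO against WT with Cre-ERT2, the filter left 2 of 4 transport calls and the threshold of 0.01 left 9 of 14 flux control calls. For the difference, flux control had 1 call against 0 with quantile normalization or without ERT2 WT replicate 3, the filter left 0 of 1 pentose phosphate call, 0.01 left 2 of 4 HIF-1 target calls, and regulators had 2 against 1 without Cre-ERT2 KO replicate 2 or 3. Unknown depth limits statements on weakly expressed genes such as Slc2a3.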
